A study of Homo sapiens with 12 samples.

Results

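Interferon-stimulated genes are the genes that cells switch on when they sense interferon. A list of 50 such genes, chosen from textbook knowledge at a time when earlier results of these data were known, was followed through HCT116 cells given TNF-alpha (TNF), Senexin B, both or neither. The members were found by symbol among the 56634 genes of the deposited table, and all 50 had a row. Of these, 34 had enough counts to be tested, among 13084 tested genes.

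HCT116 is an established human colorectal carcinoma cell line with an epithelial character. Senexin B inhibits CDK8 and CDK19, the kinases of the Mediator complex, which joins transcription factors to RNA polymerase II. All 12 libraries came from this line, in 4 groups of 3 biological replicates. The control group had 3 hours in medium with 0.1% DMSO, the solvent. The Senexin B group had 1 µM of the inhibitor over the same 3 hours. The TNF group had 1 hour in 0.1% DMSO followed by 2 hours with TNF at 10 ng/mL. In the TNF plus Senexin B group the inhibitor, at 1 µM, was given before and during the same TNF exposure. The DMSO content of the groups with Senexin B is not given in the sources used here. No group received interferon.

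Type I and type III interferons act through the kinases JAK1 and TYK2 on a complex of STAT proteins and IRF9, which binds the interferon-stimulated response element (ISRE) in promoters. Interferon gamma acts through JAK1 and JAK2 on STAT dimers, which bind the gamma-activated site (GAS). TNF acts mainly through NF-kB, which binds kappa-B sites, and IRF1, a transcription factor that binds ISRE-like sequence, is a known early TNF target. Members of the list act at each stage of antiviral defence. Some sense foreign RNA, some shut down translation, some block virus entry, and others attach ubiquitin-like tags or ADP-ribose to proteins.

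The stretches of promoter below show the sequence features that the results are set beside. They are from RefSeq on GRCh38.p14, read in the gene's own direction, and capitals mark every match, on either strand, to the ISRE core (GAAA, any 2 bases, GAAA) or to the kappa-B letters (GGGA, any 2 bases, TTCC). DDX58, IFIH1 and OAS3 rose with TNF and hold a kappa-B match, and IFIH1 and OAS3 hold ISRE core matches as well. ISG15 and IFITM3 were not called and hold ISRE core matches without one to these kappa-B letters. Of the 9 members that rose in both TNF comparisons and could be searched, only 3 held the kappa-B letters. These 5 stretches are examples picked by response and motif, so the contrast between them tests nothing. Each of these 5 covers the 160 bases before the gene start. They lie at chr9:32526197-32526356 on the minus strand for DDX58, chr2:162318685-162318844 on the minus strand for IFIH1, chr12:112938314-112938473 on the plus strand for OAS3, chr1:1013337-1013496 on the plus strand for ISG15 and chr11:320861-321020 on the minus strand for IFITM3.
DDX58: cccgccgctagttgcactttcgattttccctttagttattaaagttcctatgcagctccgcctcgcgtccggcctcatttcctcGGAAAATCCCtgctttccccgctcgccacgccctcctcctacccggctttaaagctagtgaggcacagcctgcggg
IFIH1: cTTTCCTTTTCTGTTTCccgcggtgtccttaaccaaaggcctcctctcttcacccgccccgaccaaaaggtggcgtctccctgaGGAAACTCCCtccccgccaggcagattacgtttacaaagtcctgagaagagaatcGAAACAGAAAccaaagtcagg
OAS3: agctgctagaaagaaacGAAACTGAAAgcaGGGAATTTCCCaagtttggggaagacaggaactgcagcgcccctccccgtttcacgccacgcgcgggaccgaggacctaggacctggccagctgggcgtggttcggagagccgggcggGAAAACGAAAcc
ISG15: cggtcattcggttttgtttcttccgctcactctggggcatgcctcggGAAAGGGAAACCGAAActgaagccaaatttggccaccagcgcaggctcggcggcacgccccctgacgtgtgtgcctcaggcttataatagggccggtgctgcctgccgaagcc
IFITM3: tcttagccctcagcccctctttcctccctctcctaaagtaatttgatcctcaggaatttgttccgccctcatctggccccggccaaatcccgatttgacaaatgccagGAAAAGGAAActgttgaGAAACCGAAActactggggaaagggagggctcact

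A further pair of stretches shows members that rose with ISRE core matches and without a kappa-B match. IFIT5 is shown at chr10:89414468-89414573 on the plus strand, up to 5 bases past its start, where 3 matches follow each other. DTX3L is shown at chr3:122564301-122564341 on the plus strand, which runs from the base next to the start of its neighbour PARP9 to the end of its own match.
IFIT5: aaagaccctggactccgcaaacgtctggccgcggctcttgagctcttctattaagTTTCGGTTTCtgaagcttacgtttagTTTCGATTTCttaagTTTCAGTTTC
DTX3L: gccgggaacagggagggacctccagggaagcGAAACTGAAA

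Library totals ran from 5835226 to 9281176 counts, and the lowest was TNF replicate 1. That library stood apart from its group: its deviation from the group mean followed transcript GC content with a Spearman rho of -0.54 across genes. Log2 fold changes of TNF against control followed GC content across genes as well (rho -0.41), less so for TNF under the inhibitor (rho -0.18), and in the opposite direction for Senexin B in TNF-treated cells (rho 0.38) and for the interaction (rho 0.29). The tested members' median GC content was 49.6%, near the 48.8% of all genes with a known value. It was 43.6% in the 10 members called higher in both TNF comparisons and 54.5% in the 13 held inside 1.5-fold. All 10 kept both calls with a correction for GC content. When TNF replicate 1 and control replicate 1 were both left out, 12 members were called with TNF, UBE2L6 lower and the others higher, and 11 under the inhibitor, and each member's call that changed is given below. TNF reference genes checked the labels: NFKBIA, TNFAIP3, BIRC3, ICAM1 and CXCL8 rose in both TNF comparisons, with log2 fold changes from 3.14 to 7.15 (edgeR). Summed epithelial markers stood between 4093 and 4909 CPM (counts scaled to library size) in every library, although VIL1 was at 0. The 16 blood cell markers summed to at most 2.89 CPM and the 6 endothelial markers to at most 2.08 CPM. The 8 fibroblast markers summed to between 7.46 and 11.2 CPM, almost all of it COL1A1.

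**Figure D1:**
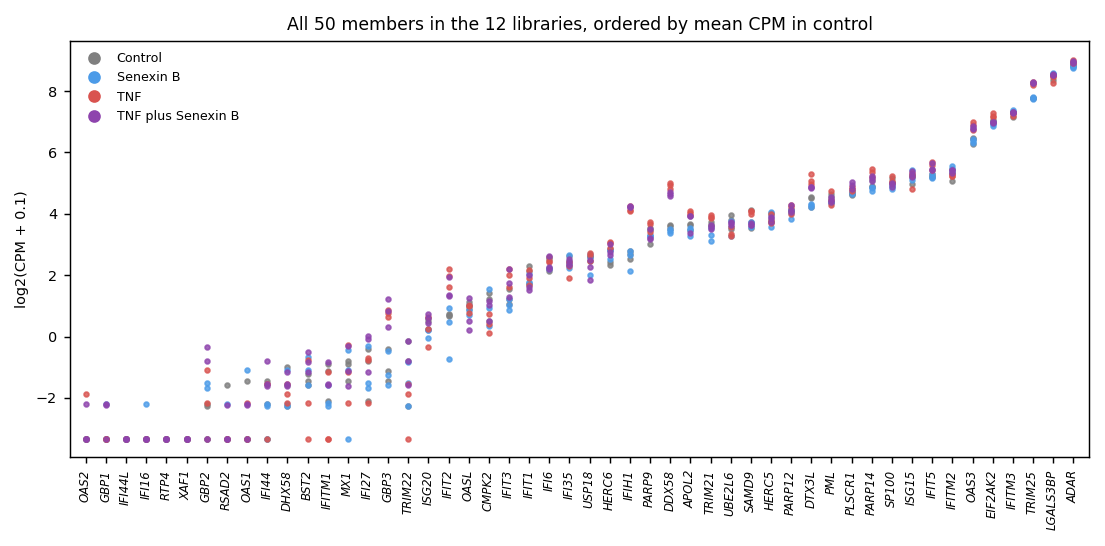
Level of all 50 members in the 12 libraries, as log2(CPM + 0.1) on the vertical axis, with the genes ordered by their mean CPM in control libraries and 1 point per library coloured by group and no correction for gene length. The list spans from genes at 0 counts, at the bottom left, to ADAR at 430.7 CPM or more in every library, and DDX58, IFIH1 and GBP3 show the widest gap between libraries with and without TNF.

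In control cells the list was uneven. Per kilobase of exon, IFITM3 was the highest member with a mean of 114 CPM per kb, followed by LGALS3BP with 99.3, ADAR with 47.2, ISG15 with 38.2 and IFITM2 with 25.3. IFITM3 is a membrane protein that blocks virus entry and LGALS3BP a secreted glycoprotein. The RNA sensors stood far lower, with 2.73 CPM per kb for DDX58 and 1.22 for IFIH1. The 16 members that were not tested included classic markers of an interferon response. MX1, a GTPase that traps viral nucleocapsids, had 39 counts over all 12 libraries, RSAD2, which makes a chain-terminating nucleotide, had 4, and OAS1, a synthetase of the RNase L activator, had 8.

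TNF raised 12 of the 34 tested members and lowered 0, where 5.81% of all tested genes were called higher and 4.2% lower. Called means an adjusted p under 0.05, from the quasi-likelihood test of edgeR with Benjamini-Hochberg adjustment over all 13084 genes. In cells already under Senexin B, TNF raised 10 of 34 and lowered 0, against 4.27% and 1.68% of all genes. The members' median log2 fold change was 0.18 in the first comparison and 0.11 in the second, with a median near 0 over all genes in both (-0.01 and 0.00). Over all genes 10% and 5.95% were called in either direction. In bulk RNA, more responding cells and more RNA per cell cannot be told apart. Every TNF library lay above every control library for 16 members and below for 0, where 12.6% and 11.8% of all genes did so. Under the inhibitor these numbers were 13 above and 1 below, against 11.5% and 10.4%. GBP3 passed the count filter only through its TNF libraries, so its rise was in part fixed by that filter and it adds no support to these counts. ISG20 passed only through its TNF plus Senexin B libraries, so its place among the 13 adds none either.

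These comparisons share no library, so each gives its own reading of the same question, and 10 members were called higher in both: GBP3, IFIH1, DDX58, IFIT2, DTX3L, OAS3, TRIM25, PARP14, IFIT5 and ADAR. Over all genes, 3.13% were higher in both and 0.963% lower in both, the latter including no member. APOL2 and EIF2AK2 were called in TNF against control alone. Another 13 were called in neither, with both 95% intervals inside a 1.5-fold change either way, as 66.5% of all genes were. The other 9 tested members were called in neither but had an interval reaching past 1.5-fold, so a change of that size was not detectable or not separable at this depth. Across the 34 members the log2 fold changes of the 2 comparisons had a Pearson correlation of 0.91 and a Spearman correlation of 0.75, and 29 had the same sign. Without GBP3 and ISG20 these were 0.91, 0.81 and 28 of 32. Over all genes the Pearson correlation was 0.67.

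**Figure D2:**
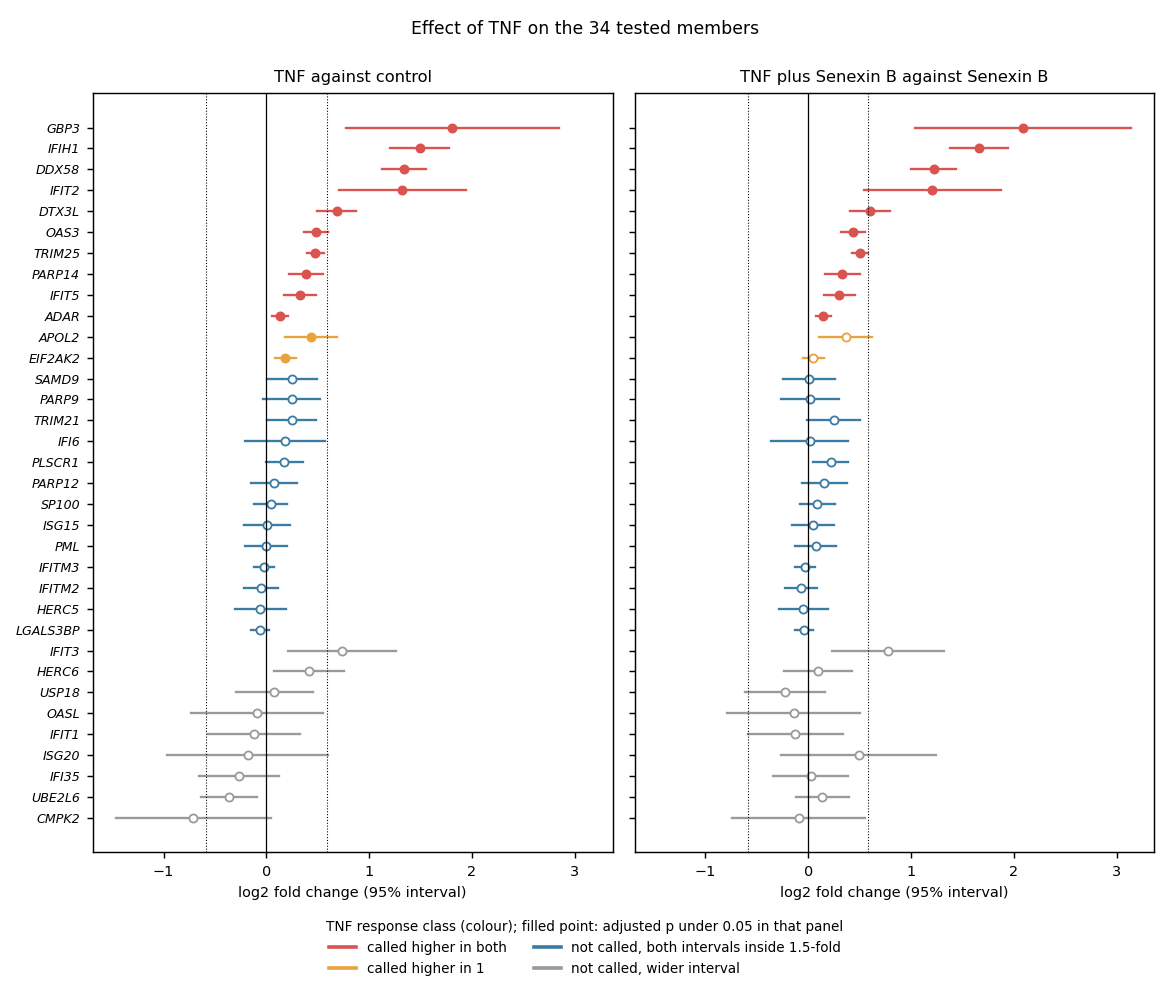
Log2 fold change of the 34 tested members with TNF (horizontal axis, 95% intervals as bars), against control on the left and under Senexin B on the right, with dotted lines at 1.5-fold either way and filled points where the adjusted p was under 0.05. GBP3, IFIH1, DDX58 and IFIT2 lie past 1 in both panels, the members from SAMD9 to LGALS3BP stay between the dotted lines, and the lowest group has wide intervals.

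The RNA sensors showed the largest well-measured rises. DDX58 encodes RIG-I, a helicase that senses RNA with a 5' triphosphate. DDX58 stood at 12.4, 11.3 and 12.0 CPM in control replicates 1, 2 and 3 and at 30.3, 32.1 and 27.7 CPM in the TNF replicates. Under the inhibitor it went from 11.2, 10.2 and 10.7 CPM to 24.8, 23.9 and 26.3 CPM with TNF. All 6 libraries with TNF lay above all 6 without it. DDX58 rose 2.52-fold with TNF (log2 fold change 1.34 ± 0.11 SE, edgeR adjusted p = 4.18e-16, n = 3 per group) and 2.33-fold under Senexin B (1.22 ± 0.11, adjusted p = 3.12e-14).

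IFIH1 encodes MDA5, which senses long double-stranded RNA. Its levels were 5.66, 6.29 and 6.74 CPM in control libraries and 18.9, 16.9 and 17.3 CPM with TNF. Under Senexin B, IFIH1 stood at 6.21, 4.34 and 6.85 CPM without TNF and at 18.8, 18.3 and 18.6 CPM with it. Again no library with TNF reached down to those without. The rise of IFIH1 was 2.81-fold (log2 1.49 ± 0.14, edgeR adjusted p = 3.44e-13) and 3.17-fold under the inhibitor (1.66 ± 0.14, adjusted p = 1.46e-15). The remaining sensor, DHX58 (LGP2), had 22 counts in all and was not tested.

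Of the enzymes that act on double-stranded RNA, OAS3 and ADAR rose in both comparisons, with rises smaller than those of the sensors. OAS3 makes the 2-5A signal that activates RNase L. Its levels were 88.4, 77.5 and 86.4 CPM in control, 105.6, 126 and 119 CPM with TNF, 78.7, 86.0 and 82.5 CPM with Senexin B, and 116, 107.9 and 110.0 CPM with both. Both pairs of groups were apart. The log2 fold change of OAS3 was 0.48 ± 0.06 (edgeR adjusted p = 3.92e-09) and 0.44 ± 0.06 under Senexin B (adjusted p = 4.34e-08). ADAR edits adenosine to inosine in such RNA. ADAR stood at 459.8, 449.9 and 462 CPM in control and 486, 497 and 519 CPM with TNF. Under Senexin B it stood at 431, 445 and 454 CPM without TNF and 499.6, 493 and 478 CPM with it. The groups did not overlap, but the log2 fold changes of ADAR were 0.13 ± 0.04 (edgeR adjusted p = 0.0124) and 0.15 ± 0.04 (0.00619). The ADAR call of TNF against control was lost without control replicate 2 (0.0682) or TNF replicate 3 (0.109) or with only the groups compared in the fit (0.0579), and that under the inhibitor without Senexin B replicate 1 (0.0671) or TNF plus Senexin B replicate 1 (0.0587).

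EIF2AK2 encodes PKR, the kinase that stops translation when it meets double-stranded RNA. Its control libraries stood at 130.04, 133 and 125 CPM and its TNF libraries at 156, 144 and 142 CPM. Under Senexin B, EIF2AK2 was at 116, 123 and 126 CPM without TNF and at 127, 128 and 123 CPM with it. The first pair of groups was apart and the second overlapped. Its log2 fold change with TNF was 0.18 ± 0.05 (edgeR adjusted p = 0.00989), and under the inhibitor 0.05 ± 0.05 (adjusted p = 0.74). The first call was lost without TNF replicate 1 (0.0536), without control replicate 3 (0.0864), without control replicate 1 and TNF replicate 1 together (0.0593) and with a correction for GC content (0.139), under which EIF2AK2 moved to a log2 fold change of 0.10. OASL stood at 2.31 CPM or lower in every library and was not called in either comparison, while OAS1 and OAS2 were not tested.

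In the IFIT family, whose proteins bind foreign RNA and hold back its translation, IFIT2 and IFIT5 rose in both comparisons. IFIT5 stood at 36.9, 38.8 and 37.2 CPM in control and at 51.5, 42.8 and 48.4 CPM with TNF. With the inhibitor it stood at 36.4, 39.4 and 35.9 CPM, and with both at 50.4, 43.2 and 44.3 CPM. Each TNF library of IFIT5 was above each library without TNF. The log2 fold changes were 0.33 ± 0.08 (edgeR adjusted p = 0.0024) and 0.30 ± 0.08 (0.00523). Under Senexin B that call was lost without Senexin B replicate 3 (0.0528) or TNF plus Senexin B replicate 1 (0.117).

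IFIT2 was a low-count gene. It stood at 1.48, 1.54 and 1.55 CPM in control and at 2.95, 3.80 and 4.52 CPM with TNF, or 38 against 85 counts over 3 libraries. Under Senexin B it stood at 1.29, 0.496 and 1.82 CPM without TNF and 3.74, 2.47 and 2.42 CPM with it, or 32 against 73 counts. The groups did not overlap, although 10.3% of the IFIT2 exon bases are shared with other genes, LIPA among them. Scaled to library size, the ratio of summed counts was 2.52 (95% counting interval 1.70 to 3.80) and 2.32 under the inhibitor (1.51 to 3.64). The IFIT2 log2 fold changes were 1.32 ± 0.31 (edgeR adjusted p = 0.00105) and 1.21 ± 0.33 (0.00908). That under the inhibitor became 0.87 and was no longer called when Senexin B replicate 2 was left out (adjusted p = 0.146), nor was it called without TNF plus Senexin B replicate 1 (0.132) or with DESeq2 (0.0939).

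IFIT3 and IFIT1 were not called. IFIT3 stood at 2.83, 2.25 and 1.99 CPM in control and 2.95, 3.92 and 4.52 CPM with TNF, with no overlap between the groups. Under the inhibitor IFIT3 stood at 2.23, 1.74 and 1.93 CPM without TNF and 3.25, 2.35 and 4.497 CPM with it, again without overlap. Its log2 fold changes were 0.73 ± 0.26 (edgeR adjusted p = 0.0595) and 0.78 ± 0.27 (adjusted p = 0.0777). IFIT3 was called without control replicate 1 (0.0468), TNF replicate 1 (0.0373) or both (0.0249). Under the inhibitor it was called without that pair (0.0492) and without TNF plus Senexin B replicate 2 (0.0237). IFIT1, the best known of the family, stood between 2.77 and 4.86 CPM over all libraries. Its groups overlapped, with a log2 fold change of -0.12 in each comparison (SE 0.22 and 0.23).

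**Figure D3:**
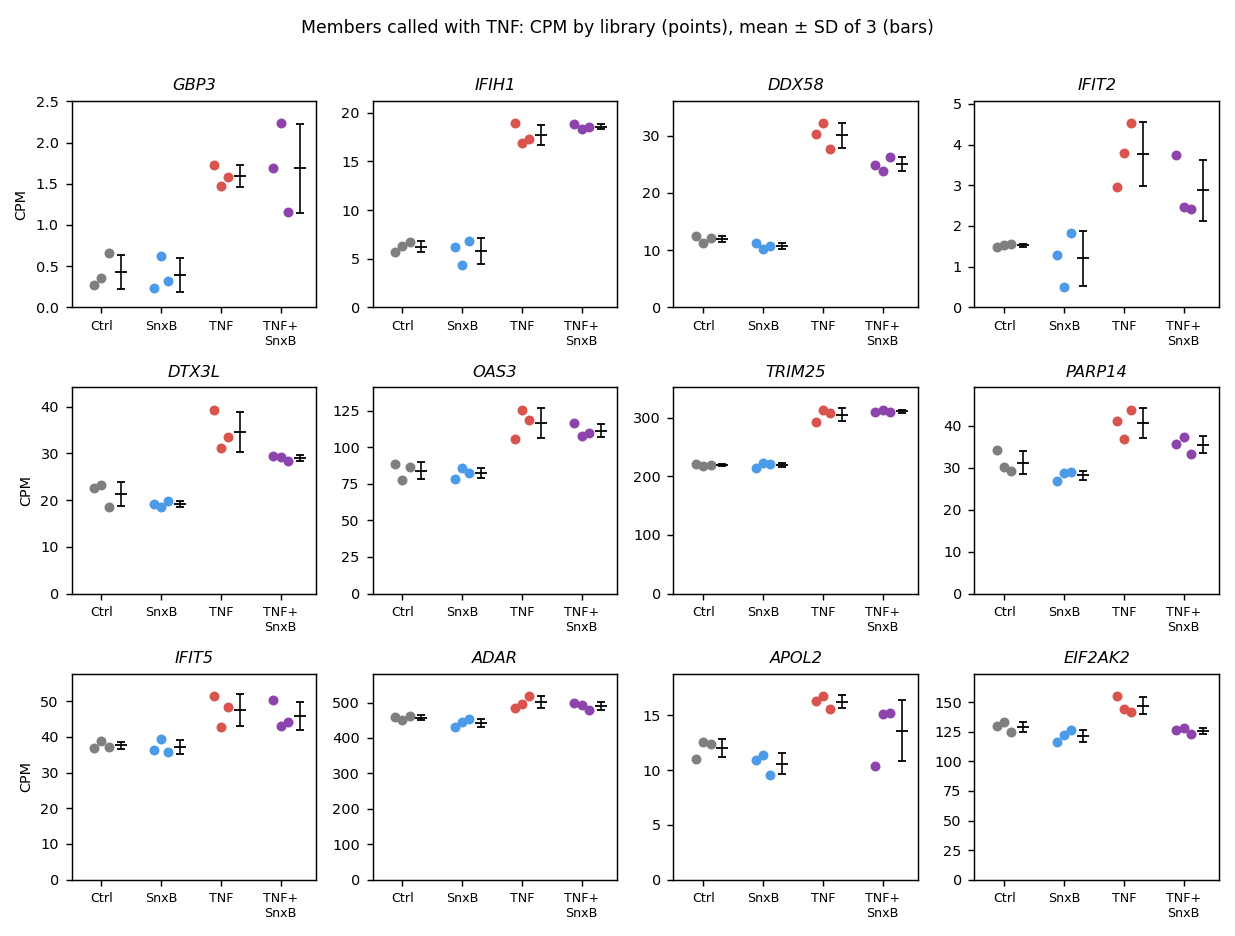
CPM by library (points) and mean ± SD of 3 libraries (bars) for the 12 members called with TNF, in the groups control (Ctrl), Senexin B (SnxB), TNF, and TNF plus Senexin B, with each vertical axis starting at 0. GBP3, IFIH1, DDX58 and IFIT2 rose 2.31-fold or more in both comparisons, and ADAR and EIF2AK2 moved by at most 1.14-fold.

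GBP3 had the largest fold and the fewest counts of the members that rose. It belongs to the guanylate-binding proteins, GTPases that attack the compartments of intracellular pathogens. GBP3 stood at 0.270, 0.356 and 0.663 CPM in control and 1.73, 1.47 and 1.59 CPM with TNF. Under the inhibitor it stood at 0.234, 0.620 and 0.321 CPM without TNF and 1.69, 2.23 and 1.15 CPM with it. The groups were apart in both cases, on 11 against 35 and 10 against 43 counts. The ratio of summed counts was 3.58 (95% counting interval 1.78 to 7.82) and 4.38 (2.17 to 9.77), and the edgeR adjusted p-values were 0.00586 and 0.000958. The first was 0.0704 when TNF replicate 1 and control replicate 1 were both left out. Its relatives were near silent: GBP1 had 3 counts in all, and GBP2 had 2 in control against 4 with TNF and 4 against 10 under the inhibitor, with counting intervals of the ratio that include 1.

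DTX3L and PARP14 rose, and PARP9 and PARP12 were not called (PARP12 0.07 ± 0.11 and 0.16 ± 0.11 on the log2 scale). DTX3L is a ubiquitin ligase that works as a partner of PARP9, and PARP14 attaches ADP-ribose to proteins. DTX3L stood at 22.5, 23.1 and 18.5 CPM in control and at 39.4, 31.0 and 33.5 CPM with TNF. Under Senexin B it went from 19.2, 18.5 and 19.7 CPM to 29.4, 29.3 and 28.4 CPM. No library with TNF reached down to one without. The log2 fold changes of DTX3L were 0.69 ± 0.09 (edgeR adjusted p = 8.63e-08) and 0.60 ± 0.10 (3.29e-06).

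PARP14 stood at 34.2, 30.1 and 29.2 CPM in control and 41.1, 36.9 and 43.9 CPM with TNF. Its levels under the inhibitor were 26.8, 28.8 and 28.9 CPM without TNF and 35.7, 37.4 and 33.3 CPM with it. These groups did not overlap either. PARP14 had log2 fold changes of 0.39 ± 0.08 (edgeR adjusted p = 0.000625) and 0.33 ± 0.08 (0.00588). The call under the inhibitor was lost without Senexin B replicate 1 (0.0559), without TNF plus Senexin B replicate 2 (0.0659) and with DESeq2 (0.0544).

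DTX3L and PARP9 lie head to head on chromosome 3, and in RefSeq their starts, at 122564338 and 122564300, are 38 bases apart. The only ISRE core match in the window of either gene is the same 10 bases, at chr3:122564332-122564341, printed in capitals above. It begins 6 bases before the start of DTX3L and 41 bases before that of PARP9. PARP9 stood at 11.6, 8.07 and 10.9 CPM in control and 12.7, 13.1 and 10.5 CPM with TNF. Under the inhibitor PARP9 stood at 9.61, 9.92 and 9.53 CPM without TNF and 11.2, 8.94 and 9.22 CPM with it. The groups overlapped both times. Its log2 fold changes were 0.24 (95% interval -0.03 to 0.52) and 0.01 (-0.27 to 0.30), where those of DTX3L had intervals of 0.50 to 0.88 and 0.41 to 0.79. The difference between the genes was not tested, and in GENCODE 29 they share 217 exon bases.

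Of the TRIM and nuclear body genes, TRIM25 rose. It is the ubiquitin ligase that helps to activate RIG-I, the product of DDX58. TRIM25 stood at 220.5, 218 and 219.7 CPM in control and at 292, 314 and 308 CPM with TNF. Under the inhibitor it stood at 215, 222 and 220.3 CPM without TNF and 309, 313 and 310.0 CPM with it. The libraries with TNF lay far above those without. Its log2 fold changes were 0.48 ± 0.04 (edgeR adjusted p = 2.89e-14) and 0.50 ± 0.04 (1.7e-15). TRIM21, a cytosolic antibody receptor, and PML and SP100, the scaffolds of nuclear bodies, were not called, with log2 fold changes from 0.00 to 0.25 over both comparisons.

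APOL2, a cytosolic apolipoprotein L, stood at 11.1, 12.6 and 12.4 CPM in control and 16.3, 16.8 and 15.6 CPM with TNF, with the groups apart. Under Senexin B it stood at 10.9, 11.4 and 9.53 CPM without TNF and 10.4, 15.2 and 15.2 CPM with it, and the first of these overlapped. The log2 fold changes of APOL2 were 0.43 ± 0.13 (edgeR adjusted p = 0.0178) and 0.37 ± 0.13 (0.0926). The first call was lost without control replicate 1 (0.071), without TNF replicate 2 (0.0626), without both control replicate 1 and TNF replicate 1 (0.101) and with DESeq2 (0.108). That under the inhibitor was gained without TNF plus Senexin B replicate 1 (0.00668).

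Of the 5 tested genes of the ISG15 tagging system, 0 were called with TNF, with or without the inhibitor. Over all genes 10% were called in TNF against control and 5.95% under the inhibitor, so 0 of 5 shows little. ISG15 is a ubiquitin-like protein, UBE2L6 its conjugating enzyme, HERC5 its main ligase, HERC6 a relative of that ligase, and USP18 the protease that removes it. ISG15 stood at 38.7, 37.9 and 31.4 CPM in control and 28.1, 40.1 and 37.9 CPM with TNF. Under the inhibitor it stood at 43.0, 33.8 and 36.9 CPM without TNF and 41.9, 36.6 and 39.2 CPM with it. The 4 groups overlapped. The intervals of its log2 fold change were -0.21 to 0.22 and -0.16 to 0.25, inside 1.5-fold, and those of HERC5 were too. USP18 had log2 fold changes of 0.08 ± 0.19 and -0.22 ± 0.19, with an interval past that width.

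UBE2L6 stood at 11.2, 15.4 and 13.7 CPM in control and 10.1, 9.57 and 11.7 CPM with TNF. Its log2 fold change was -0.37 ± 0.14 (edgeR adjusted p = 0.0773) with overlapping groups, and it was called lower without control replicate 1 (0.0247), also when TNF replicate 1 was left out with it (0.0498). Under the inhibitor UBE2L6 had a log2 fold change of 0.14 ± 0.13. HERC6 had 0.42 ± 0.17 with TNF (edgeR adjusted p = 0.118), with no overlap between 4.99, 5.34 and 7.18 CPM in control and 8.15, 8.34 and 7.21 CPM with TNF. It was called without control replicate 3 (0.0481), and under the inhibitor its log2 fold change was 0.09 ± 0.17.

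Of the 8 direct antiviral effectors, MX1, RSAD2, IFITM1 and BST2 were not tested, and the 4 that were tested were not called. With 10% of all genes called in TNF against control and 5.95% under the inhibitor, 0 of 4 shows little. IFITM3 stood at 143, 161 and 158 CPM in control, 145, 155 and 155 CPM with TNF, 167, 158 and 157 CPM with Senexin B, and 158, 159 and 156 CPM with both. Its groups overlapped, and the intervals of its log2 fold change, -0.12 to 0.08 and -0.13 to 0.07, were inside 1.5-fold. IFITM2, a close relative, had log2 fold changes of -0.05 ± 0.08 and -0.07 ± 0.08. IFITM1, IFITM2 and IFITM3 are near-identical copies, and the treatment of reads that match several of them is not given in the sources used here, so their counts are uncertain. CMPK2, a mitochondrial nucleotide kinase, and ISG20, an RNA exonuclease, stood at 2.85 CPM or lower in every library, and their intervals reached past 1.5-fold.

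SAMD9, PLSCR1, LGALS3BP, IFI6 and IFI35 complete the tested members. SAMD9, a restriction factor for poxviruses, stood at 17.5, 13.2 and 11.5 CPM in control and 16.8, 15.9 and 16.9 CPM with TNF. Its groups overlapped, and the log2 fold change was 0.25 ± 0.12 (edgeR adjusted p = 0.205). Without control replicate 1, which held the highest value, SAMD9 was called higher (log2 fold change 0.42, adjusted p = 0.0236), also without TNF replicate 1 beside it (0.0453), so its place among the members held inside 1.5-fold rests on that library. LGALS3BP stood at 331, 367 and 370.5 CPM in control and 308, 352 and 361 CPM with TNF, with a log2 fold change of -0.06 ± 0.04. PLSCR1, a phospholipid scramblase, was above the libraries without TNF in both comparisons but was not called (0.17 ± 0.09 and 0.22 ± 0.08, edgeR adjusted p = 0.239 and 0.142). IFI6, a mitochondrial protein that delays cell death, had 0.18 ± 0.19 and 0.02 ± 0.19, and IFI35, a leucine zipper protein, -0.27 ± 0.20 and 0.03 ± 0.18.

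The 16 members that were not tested are DHX58, OAS1, OAS2, MX1, RSAD2, IFITM1, BST2, GBP1, GBP2, TRIM22, IFI16, IFI27, IFI44, IFI44L, XAF1 and RTP4. IFI44L, XAF1 and RTP4 were at 0 in all 12 libraries, which allows up to 3 counts for a group of 3 libraries. No library held more than 8 counts of any of the others. The most counted was IFI27, with 11 counts in control, 10 with Senexin B, 8 with TNF and 18 with both. MX1 had 10, 9, 9 and 11 counts in the same order. Because these members did not pass the count filter, a change in them could not be called. GBP3, with 11 counts in control and 35 with TNF, was tested only because its TNF libraries passed that filter. It therefore does not show what size of change could be seen in these members. Neither IFI27 nor MX1 had more counts with TNF than in control, but under the inhibitor both had more with TNF. These counts are not scaled to library size.

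The promoter windows were searched for the ISRE core, the kappa-B letters and the GAS letters TTCNNNGAA on both strands, in the 300 bases that RefSeq gives from 250 before to 50 after each start. A window was found for 40 of the 50 members, DDX58 under its present symbol RIGI. The ISRE core was in 29 of 40 (72.5%), against 4.38% of all genes with a window and 3.75% of tested genes. GAS letters were in 22.5% of members and 9.38% of all genes. Kappa-B letters were in 3 of 40 members (7.5%) and 1.97% of all genes. The wider kappa-B consensus with degenerate letters, which contains the narrower one, was in 17.5% of members, 13.3% of all genes and 17.7% of tested genes.

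By response to TNF, the ISRE core did not follow the calls. It was in 6 of the 9 members higher in both comparisons that had a window, in 10 of 11 members held inside 1.5-fold, in 3 of 7 with wider intervals and in 9 of 12 not tested. ISG15 and IFITM3, printed above, hold 2 matches each, and IFIT1 holds 2. IFIT3 has 2 windows, with 2 matches in each. The kappa-B letters were found in DDX58, IFIH1 and OAS3, all higher in both. Those of DDX58 and IFIH1 begin 76 bases before the start, and OAS3 holds a pair of overlapping matches on opposite strands, which begin 130 and 129 bases before the start. Of the other 31 members with a window, 0 held the letters. The wider consensus was spread more evenly, in 3 of 9 members higher in both, 3 of 12 not tested and 1 of 11 held inside 1.5-fold, which was IFITM3. Among all tested genes with a window, the narrower kappa-B letters were in 37 of 323 that were higher in both (11.5%). They were in 0 of 98 that were lower in both and 149 of 8294 called in neither (1.8%). The wider consensus was in 37.5%, 23.5% and 16.6% of these sets. DDX58 had no ISRE core match, and ADAR and TRIM25 had neither. A match describes letters in this window and was not tested as a binding site.

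**Figure D4:**
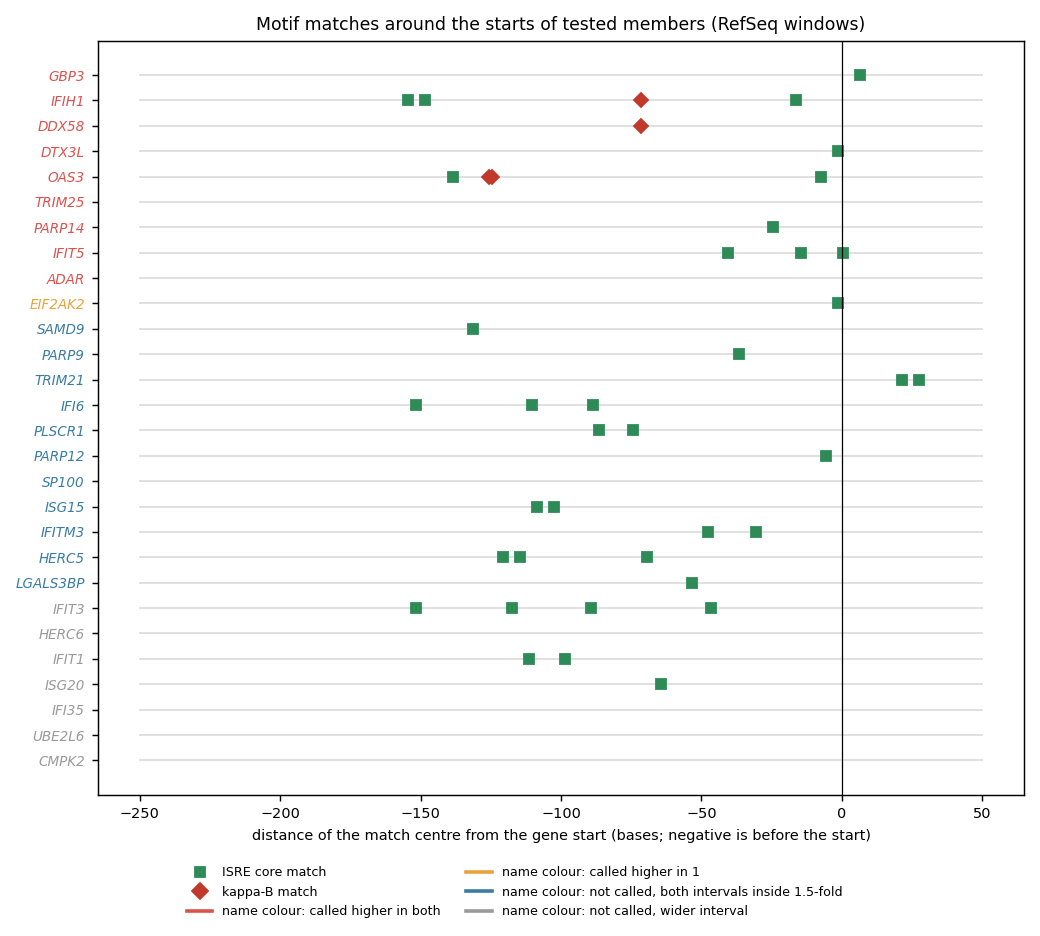
Matches to the ISRE core (squares) and to the kappa-B letters (diamonds) in the windows of the 28 tested members that RefSeq covers, by distance of the match centre from the gene start in bases, with names coloured by response to TNF. Squares occur in every colour of name, and diamonds occur at DDX58, IFIH1 and OAS3 alone.

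With Senexin B on its own 0 of the 34 members were called, where 1.53% of all genes were called higher and 1.51% lower (3.04% in all). The smallest edgeR adjusted p of a member was 0.166, 4 members had an unadjusted p under 0.05 (2 higher and 2 lower, 14.2% of all genes had one), and DESeq2 also called 0. The members' median log2 fold change was -0.10, with 8 of 34 above zero, against a median of 0.00 and 49.9% above zero over all genes. Senexin B libraries lay below every control library for 5 members and above for 1, where 10% and 9.96% of genes did so. TRIM21 had the smallest adjusted p, going from 13.2, 12.3 and 12.2 CPM to 11.5, 9.92 and 8.56 CPM. Its log2 fold change was -0.33 ± 0.13, which was not called (edgeR adjusted p = 0.166).

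In TNF-treated cells Senexin B lowered 2 members, EIF2AK2 and SAMD9, and raised 0, where 2.55% of all genes were called lower and 2.9% higher (5.45% in all). EIF2AK2 stood at 156, 144 and 142 CPM with TNF and at 127, 128 and 123 CPM with TNF plus Senexin B, without overlap. Its log2 fold change was -0.22 ± 0.05 (edgeR adjusted p = 0.00282). SAMD9 stood at 16.8, 15.9 and 16.9 CPM with TNF and then at 13.0, 12.2 and 12.5 CPM, also apart, with -0.39 ± 0.12 (adjusted p = 0.0438). Both genes have a low GC content, 38.7% for EIF2AK2 and 36.0% for SAMD9. The SAMD9 call was lost in 14 of 20 alternative settings, with adjusted p-values from 0.0504 to 0.164. It was lost on leaving out any Senexin B library (0.0504 to 0.052), any TNF library (0.0545 to 0.117) or any TNF plus Senexin B library (0.0844 to 0.134), and with a correction for GC content (0.149), while EIF2AK2 kept its call in all 20.

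The members that rose most with TNF were not called in this comparison. DDX58 stood at 30.3, 32.1 and 27.7 CPM with TNF and at 24.8, 23.9 and 26.3 CPM with both. Its groups were apart, with a log2 fold change of -0.26 ± 0.09 (95% interval -0.44 to -0.09, edgeR adjusted p = 0.0655), and it was called without TNF replicate 3 (0.0393). DTX3L was likewise apart, with -0.24 ± 0.09 (adjusted p = 0.104), and was called without TNF replicate 2 (0.0397). IFIH1 had 0.08 ± 0.11, TRIM25 0.03 ± 0.04 and OAS3 -0.07 ± 0.06, with overlapping groups. Of the 34 members, 11 had an unadjusted p under 0.05, 9 lower and 2 higher, where 18.9% of all genes had one. Libraries with both agents were below those with TNF for 6 members and above for 4, against 11.3% of all genes each way.

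**Figure D5:**
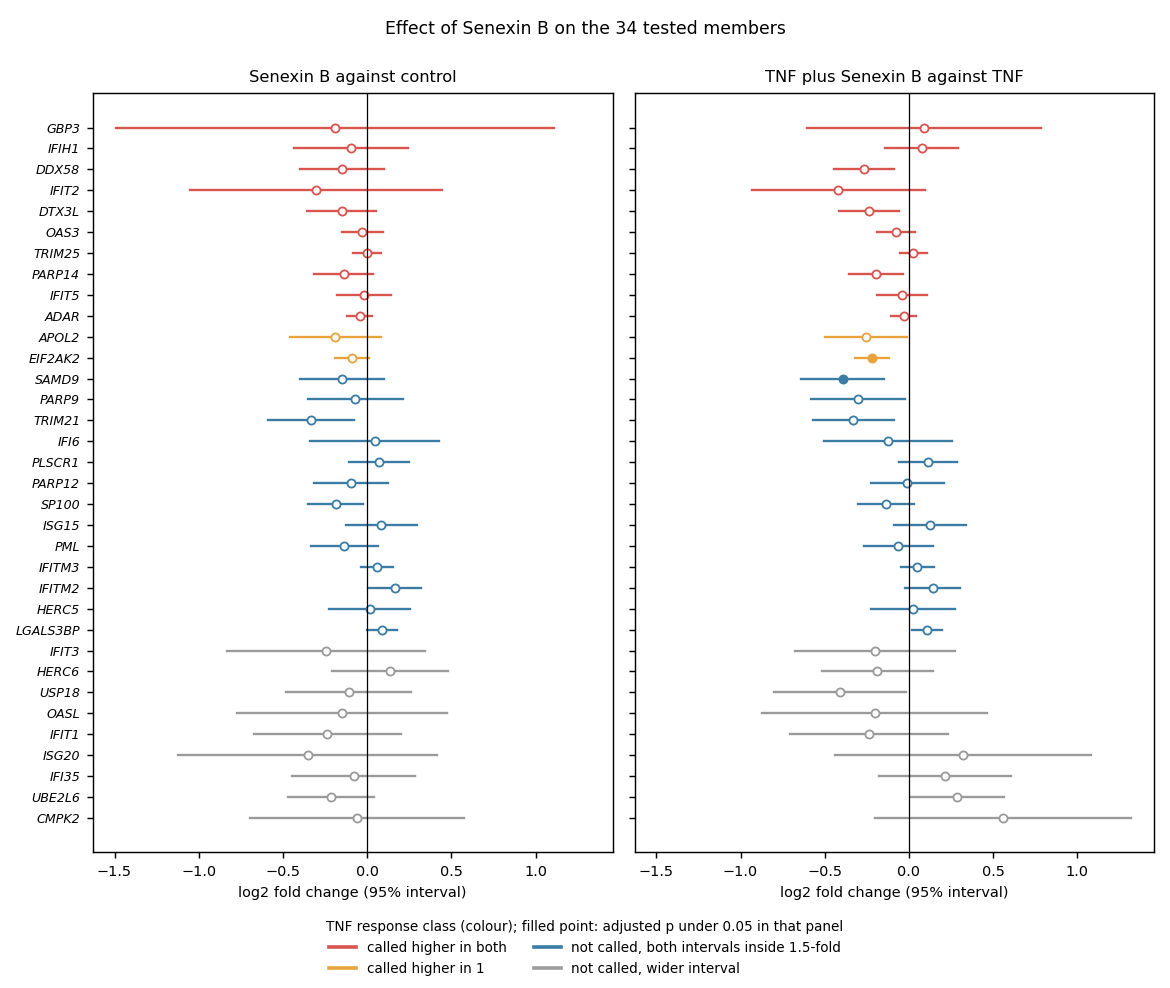
Log2 fold change of the 34 tested members with Senexin B (horizontal axis, 95% intervals as bars), against control on the left and in TNF-treated cells on the right, with colours for the response to TNF and filled points where the adjusted p was under 0.05. EIF2AK2 and SAMD9 are the filled points, both on the right and below 0, and the left panel has none.

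Whether the inhibitor changed the TNF response was tested by the interaction of TNF and Senexin B, which uses all 4 groups. No member was called, where 0.0459% of all genes were (0.0229% higher and 0.0229% lower). The smallest adjusted p of a member was 0.743 (edgeR), 1 member had an unadjusted p under 0.05 (UBE2L6, 0.50 ± 0.19 on the log2 scale), against 6.08% of all genes, and DESeq2 also called 0. For the members that rose in both, the interaction was estimated closely where counts were high: 0.03 for TRIM25 (95% interval -0.09 to 0.14), -0.05 for OAS3 (-0.21 to 0.12) and -0.11 for DDX58 (-0.42 to 0.19). For EIF2AK2, called with TNF alone and not under the inhibitor, it was -0.13 (-0.27 to 0.01, adjusted p = 0.805), so the TNF effects on EIF2AK2 were not shown to differ. For GBP3 the interval ran from -1.19 to 1.75 and shows little.

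Genes that produce and carry the interferon signal were read from a list of 42, of which 30 were tested. With TNF 14 rose and 1 fell, against 5.81% and 4.2% of all genes, and under the inhibitor 12 rose and 1 fell, against 4.27% and 1.68%. The 9 interferon genes on it were near silent. IFNB1, IFNA2, IFNK, IFNG, IFNL1 and IFNL3 were at 0 in all libraries, and the list summed to 5 counts in control, 3 with Senexin B, 4 with TNF and 3 with both, so none was tested.

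Among receptors and kinases, 5 of 9 rose in each TNF comparison, where 5.81% and 4.27% of all genes did. IFNGR2, a chain of the interferon gamma receptor, stood at 51.1, 59.3 and 51.6 CPM in control and 170.8, 163 and 160.7 CPM with TNF. Under the inhibitor IFNGR2 went from 58.7, 52.6 and 57.7 CPM to 149.7, 149.9 and 145 CPM. Its libraries with TNF stood well above the rest, with log2 fold changes of 1.61 ± 0.06 and 1.39 ± 0.06 (edgeR adjusted p = 2.35e-31 and 1e-28). Its partner IFNGR1 had 0.66 ± 0.07 and 0.76 ± 0.07. IFNAR1 and JAK1 rose by less (0.48 and 0.21 with TNF, 0.29 and 0.27 under the inhibitor). IFNAR2 was called too (0.52 and 0.53), but 83.2% of its exon bases overlap other genes, so its reads are uncertain. For IFNGR2 this overlap is 12.8%, with TMEM50B. The first IFNAR2 call was lost without control replicate 1 and TNF replicate 1 (0.0794), and the second without Senexin B replicate 2 (0.0873) or TNF plus Senexin B replicate 2 (0.133) and with DESeq2 (0.0731).

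Among the transcription factors, IRF1 and IRF2 rose in both TNF comparisons. IRF1 stood at 19.8, 16.9 and 17.0 CPM in control, 14.9, 13.8 and 12.8 CPM with Senexin B, 83.1, 91.2 and 82.7 CPM with TNF, and 65.1, 72.0 and 71.6 CPM with both. All 4 groups were apart, although 22.0% of the IRF1 exon bases overlap other genes. Its log2 fold changes with TNF were 2.27 ± 0.09 and 2.33 ± 0.09 (edgeR adjusted p = 1.08e-31 and 3.52e-31), larger than that of any tested member of the interferon-stimulated list. With Senexin B, IRF1 fell in TNF-treated cells (-0.30 ± 0.06, adjusted p = 0.000927) and in cells without TNF (-0.37 ± 0.11, adjusted p = 0.0455). The latter call was lost without any control library (0.054 to 0.281), any Senexin B library (0.0531 to 0.229), TNF plus Senexin B replicate 2 (0.0526) or 3 (0.051), and with DESeq2 (0.0892). IRF2, an antagonist of IRF1, rose by 1.27 ± 0.15 and 0.98 ± 0.15.

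STAT3 was called higher under the inhibitor (0.24 ± 0.06 on the log2 scale, edgeR adjusted p = 0.00165) and not with TNF alone (0.09 ± 0.06, adjusted p = 0.337), and the difference between these effects was not called. STAT2 was not called in either (0.01 ± 0.11 and 0.03 ± 0.11), and IRF9 had 2 counts in all, although 48.4% of its exon bases overlap another gene.

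Of 8 tested genes on the list of sensor adaptors and kinases, which also holds TLR3 and TMEM173, 4 rose in both TNF comparisons. Over all genes 3.13% did so. IKBKE, a kinase that activates IRF3, stood at 5.12, 4.15 and 5.08 CPM in control and 11.8, 16.3 and 15.1 CPM with TNF. It rose 3.06-fold and, under the inhibitor, 2.83-fold, and the log2 fold changes of TRAF3, TICAM1 and TANK were 0.92 and 1.01, 0.89 and 0.87, and 0.50 and 0.71. MAVS, the adaptor that RIG-I and MDA5 share, was not called (-0.09 ± 0.04 and -0.01 ± 0.04). TANK was also higher with both agents than with TNF (0.24 ± 0.06, edgeR adjusted p = 0.0114), a call lost without TNF replicate 2 (0.11) or TNF plus Senexin B replicate 2 (0.0701) and with DESeq2 (0.0542).

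Among the genes that restrain the pathway, SOCS3 fell with TNF. It stood at 25.2, 29.2 and 28.4 CPM in control, 18.0, 20.9 and 21.4 CPM with TNF, 21.4, 22.1 and 21.4 CPM with Senexin B, and 15.2, 16.7 and 17.9 CPM with both. Libraries with TNF were below their reference in both comparisons. The log2 fold changes were -0.45 ± 0.10 (edgeR adjusted p = 0.000549) and -0.38 ± 0.10 (0.00925), the latter lost without TNF plus Senexin B replicate 1 (0.0971) and with DESeq2 (0.0939). SOCS3 also fell with Senexin B alone (-0.36 ± 0.09, adjusted p = 0.0137), which was lost without control replicate 2 (0.094) or 3 (0.0722) without Senexin B replicate 1 (0.0584) or 3 (0.068) and with DESeq2 (0.115). PTPN2, a phosphatase of JAK and STAT proteins, rose with TNF (0.25 ± 0.06, adjusted p = 0.00452, or 0.057 without control replicate 1 and TNF replicate 1) and was lower with both agents than with TNF (-0.22 ± 0.06, adjusted p = 0.0246). That last call was lost without TNF replicate 1 (0.14) or TNF plus Senexin B replicate 1 (0.0729) or 2 (0.17), with a correction for GC content (0.113) and with DESeq2 (0.0764).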

How the data were processed

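RNA of 12 HCT116 cultures went into libraries made with a TruSeq RNA kit without strand marks, per the labels' protocols. The authors deposited raw read counts per gene symbol, not normalized. The submitters' processing notes name STAR 2.4, SAMtools 1.2, featureCounts of Subread 1.4.6 and GRCh38. The annotation release and the handling of multi-mapping reads are not given in the sources used here.

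All 12 libraries were fitted together, with 1 coefficient per group, by the robust quasi-likelihood method of edgeR 4.0.16 under R 4.3.3. TMM scaled the libraries, and filterByExpr kept genes with about 10 counts at the median library (1.20 CPM). CPM per kb divides by the GENCODE 29 exon length. Standard errors come from the information matrix scaled by the quasi-dispersion. Intervals of summed counts are exact and cover counting error only. On simulated counts for TNF against control over 12963 genes, 1.5-fold changes were recovered in 83.6% of cases. For 2-fold and 4-fold changes the shares were 93.8% and 100%. The 95% intervals covered the set fold in 95.5%, 90.8% and 95.5% of cases, in the same order. Of 195 calls on these counts, 12 were false. Recovery was not tested with gene-by-gene spread or with a library that follows GC content, as TNF replicate 1 did. The shares are therefore not a measure of power for the members.

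The labels call the replicates biological and state no pairing of their numbers. The members, roles and pathway lists were chosen with earlier results of these data known. Members called in any comparison are given in full and the others by range, with up to 4 per role named by level. IFIT3, UBE2L6, HERC6, USP18, PLSCR1 and the low-count genes were singled out after their values were seen. DESeq2 1.42.0, other scalings, GC correction, a replicate block, no filter and leaving out libraries were tried. Motifs were searched with Python 3.11.15. Single values of some pathway genes are not reported here.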

Additional observations from a re-analysis of the deposited data

How the results depend on the processing

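Members called with TNF numbered 12 and ranged from 9 (DESeq2) to 14 (without control replicate 1, with 13 higher and UBE2L6 lower) over 20 alternatives (DESeq2 gave adjusted p-values to 29 members, lost the call of APOL2 and gave none to IFIT2 and GBP3), and those under the inhibitor numbered 10 and ranged from 8 to 11. DDX58, IFIH1, OAS3, TRIM25 and DTX3L were called in both TNF comparisons under all 20. Members called in both TNF comparisons ranged from 7 (DESeq2) to 10. Senexin B alone and the interaction called 0 members under every alternative run. For TNF plus Senexin B against TNF the 2 members called became 1 with GC-corrected offsets, with DESeq2, without the filter on low counts, without control replicate 1 and TNF replicate 1, and with the replicate block and GC-corrected offsets together. Leaving out 1 library gave from 1 to 2 there. EIF2AK2 kept its call throughout. Members held inside the width numbered 13 at 1.5-fold, 7 at the narrower and 19 at the wider of the widths tried. Correlations of same-numbered libraries' deviations ran from -0.01 to 0.12, with 1 of 18 over 0.1, which cannot exclude a weak pairing of the numbers. With the replicate block 12, 10, 0 and 2 members were called in the 4 comparisons, as without it. Over all genes the block gave 1470, 827, 479 and 871 calls, against 1309, 779, 398 and 713 without it. Fitting only the groups compared cannot be done for the interaction. At 6 to 9 counts per CPM, 16 members could not be tested.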
